A study of Mus musculus with 6 samples.

Results

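The 9 plexin genes of the mouse, Plxna1, Plxna2, Plxna3, Plxna4, Plxnb1, Plxnb2, Plxnb3, Plxnc1 and Plxnd1, were followed in hematopoietic stem and progenitor cells after conditional deletion of the H3K4 methyltransferase Setd1b. They are 9 of the 45706 genes in the deposited table. Plxnb1 was chosen by its counts, which were higher in the cKO-labelled libraries in this same contrast, and the other 8 were included as members of the family. The values of Plxnb1 between the genotypes are therefore given as a description without a test.

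Plexins are the receptors of the semaphorins, a large family of secreted and membrane-bound guidance cues. Ligand binding at the extracellular sema domain activates an intracellular GTPase-activating domain that acts on R-Ras and Rap proteins, and B-type plexins in addition recruit the guanine nucleotide exchange factors encoded by Arhgef11 and Arhgef12 through their C-terminus. Secreted semaphorins mostly need a neuropilin as co-receptor. In blood and immune cells, plexins and semaphorins are known for roles in cell migration, adhesion and cell contacts, and plexin-B2 is also a receptor of angiogenin, which acts on hematopoietic stem and progenitor cells.

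RNA was sequenced from the LSK compartment (Lin- Sca-1+ c-Kit+) of bone marrow, which holds stem cells and multipotent progenitors. The 3 control mice were Setd1b HET (FD/+; RC/+), here Ctrl, and the other 3 were Setd1b HOM (FD/FD; RC/+), here cKO. FD is the conditional Setd1b allele with a floxed exon and RC is Rosa26-Cre-ERT2, a tamoxifen-inducible Cre expressed in nearly all tissues. All 6 male C57BL/6 mice carried RC and at least 1 FD allele. They received repeated doses of 4.5 mg tamoxifen by gavage, not on every day, and were analyzed 3 days after the last dose. The Ctrl cells had thus also been exposed to active Cre and had 1 recombined allele, and the deletion was not restricted to blood cells. The mice were 16 weeks old, except the mouse of cKO-labelled library 3 at 17 weeks.

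Between 13003573 and 21277519 reads were counted on genes per library. The library numbers form 2 series, the first with Ctrl 1 and the cKO-labelled libraries 1 and 2, the second with Ctrl 2, Ctrl 3 and the cKO-labelled library 3. Setd1b itself had 213 ± 16.2 CPM in Ctrl (read counts scaled to a common library size, SD, n = 3) and 292 ± 21.1 CPM (SD, n = 3) in the cKO-labelled libraries, which goes against the labels, although a count over the whole gene says little about the loss of a single exon. The gate markers Kit, Ly6a, Cd34, Flt3, Slamf1 and Cd48 were all measured, with Kit at 452 ± 59.5 CPM in Ctrl and 440.0 ± 24.7 CPM in the cKO-labelled libraries (SD, n = 3 each), and 0 of the 6 passed the test between the genotypes with edgeR or DESeq2. At an unadjusted p under 0.05, 2 of them, Flt3 and Cd48, were lower in the cKO-labelled libraries. In bulk samples, fewer cells of a type and less RNA per cell cannot be told apart.

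The genes lie on 6 chromosomes. Plxnb1 (ENSMUSG00000053646) is on chromosome 9 from 109095389 to 109119917 on the plus strand (GRCm38, also for the positions that follow). Plxnb2 (ENSMUSG00000036606) is on chromosome 15 from 89155549 to 89171120, Plxna4 (ENSMUSG00000029765) on chromosome 6 from 32144268 to 32588192 and Plxnc1 (ENSMUSG00000074785) on chromosome 10 from 94790866 to 94944578, all 3 on the minus strand. Plxna1 and Plxnd1 are also on chromosome 6, Plxna2 is on chromosome 1, and Plxna3 and Plxnb3 are on chromosome X. The summed exon lengths lay between 6493 bases for Plxnb3 and 17174 bases for Plxna2. No stretch of 75 bases, the length of a read, was shared between the annotated transcripts of any 2 plexins. Antisense genes overlapped exons of Plxna1, Plxna4 and Plxnb1 by 970, 110 and 257 bases. They had at most 2 counts in a library, and reads were counted by strand. On the same strand, Plxnc1 shares 115 bases of exon with Gm48718, which was not analysed here.

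Setd1b complexes contain Cfp1, a protein that binds non-methylated CpG dinucleotides, and promoters rich in CpG are typical sites of H3K4 methylation. The 3 B-type plexins show how widely this feature varies within the family. The sequences below give 200 bases that end 50 bases before the RefSeq transcript start (GRCm38.p6, 5′ to 3′ on the strand of the gene), with each CpG in capitals. The windows are chr9:109095186-109095385 for Plxnb1, chr15:89180839-89181038 for the more distant of 2 annotated starts of Plxnb2, and chrX:73756853-73757052 for Plxnb3.
Plxnb1: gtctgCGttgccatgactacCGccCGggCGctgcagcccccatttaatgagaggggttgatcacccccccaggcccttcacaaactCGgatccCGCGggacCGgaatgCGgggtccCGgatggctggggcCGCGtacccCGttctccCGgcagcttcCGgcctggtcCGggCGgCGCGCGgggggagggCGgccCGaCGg
Plxnb2: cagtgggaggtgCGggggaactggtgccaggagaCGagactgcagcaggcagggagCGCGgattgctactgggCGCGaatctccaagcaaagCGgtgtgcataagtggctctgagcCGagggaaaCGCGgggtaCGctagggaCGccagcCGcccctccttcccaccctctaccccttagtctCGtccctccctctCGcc
Plxnb3: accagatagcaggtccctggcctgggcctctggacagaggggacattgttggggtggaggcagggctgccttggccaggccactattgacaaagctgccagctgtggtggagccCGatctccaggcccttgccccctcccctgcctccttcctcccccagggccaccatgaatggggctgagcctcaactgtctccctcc

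Plxnb1 had 23 CpG in this window, more than 93.5% of the 32851 windows of the same length in the table, in which the median was 4. Plxnb2 had 15 at the start shown and 7 at the other start. Both of these starts lie upstream of the span of Plxnb2 given above, outside the gene model whose reads were counted. Plxnb3 had 1. The windows of Plxna2, Plxna3, Plxnc1 and Plxnd1 held between 8 and 14, and no window was at hand for Plxna1 and Plxna4. A GGGCGG sequence, on either strand, was found in 6 of the 8 plexin windows and in 24.6% of all windows. It contains a CpG, so that it also counts among the CpG given here. TATAAA, on either strand, was in none of the 8 and in 9.14% of all windows. All windows end 50 bases before the start, so a TATAAA nearer to the start lay outside the search. These matches describe letters in a window and were not tested against expression.

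Expression of the family covered nearly 3 orders of magnitude. In Ctrl, Plxnc1 was highest, at 21.1 ± 0.422 CPM per kilobase of exon (SD, n = 3), followed by Plxnb2 at 11.7 ± 1.27, Plxnd1 at 8.86 ± 0.838 and Plxna1 at 3.95 ± 0.240. These 4 genes made up between 96.7% and 98.4% of the plexin level per length of a library. Plxna3 followed at 0.734 ± 0.253. Plxna2 (0.149 ± 0.0516) and Plxna4 (0.119 ± 0.0284) came next, and the Ctrl values of these 2 neighbours overlapped. At the bottom, Plxnb3 (0.0345 ± 0.0138) and Plxnb1 (0.0259 ± 0.0242) overlapped as well. All other neighbours in this order were separated in the 3 Ctrl libraries. Among the 15184 genes tested, the level per length was above 82.5% of them for Plxnc1 and above 71.2% for Plxnb2, but above only 0.514% for Plxnb1. In the cKO-labelled libraries the first 5 places were the same. Plxna4 (0.323 ± 0.0388) and Plxnb1 (0.191 ± 0.0163) stood above Plxna2 (0.135 ± 0.0447) and Plxnb3 (0.0395 ± 0.0516), and of these neighbours only Plxna2 and Plxnb3 overlapped. LSK cells thus held mainly transcripts of the semaphorin receptors plexin-C1, plexin-B2, plexin-D1 and plexin-A1.

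**Figure D1:**
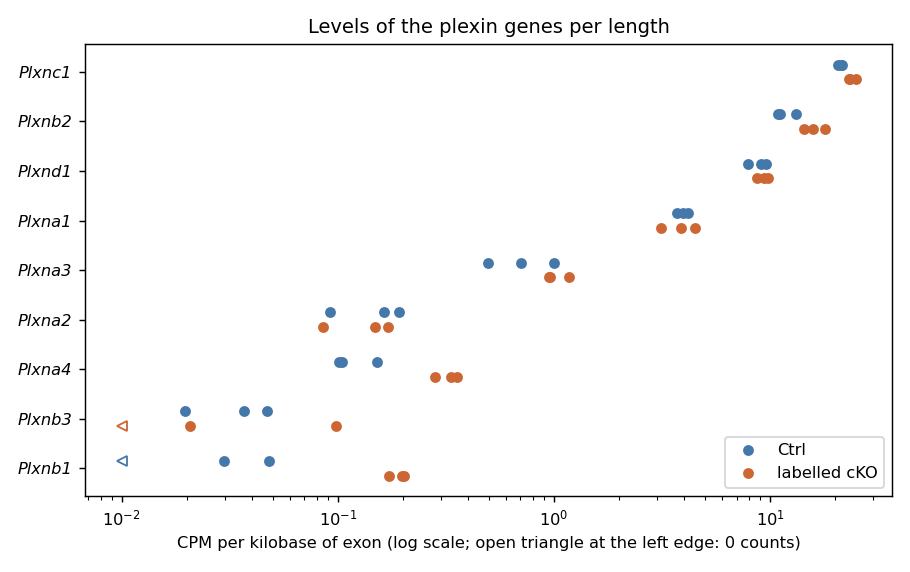
Levels of the 9 plexin genes in CPM per kilobase of exon (log axis), each dot 1 library, Ctrl in blue and cKO-labelled libraries in orange; open triangles mark libraries with 0 counts. Plxnc1, Plxnb2, Plxnd1 and Plxna1 lie above 3 in every library, and Plxna4 and Plxnb1 are the genes whose dots separate most clearly between the groups.

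Between the genotypes, 8 of the 9 genes were tested with edgeR's quasi-likelihood test, and Plxnb3 did not pass the filter on low counts. Of the 7 other than Plxnb1, 2 were higher in the cKO-labelled libraries at a Benjamini-Hochberg adjusted p under 0.05 (Plxna4 and Plxnb2) and 0 were lower. Among all genes tested 3.88% were higher and 3.79% lower. None of the 7 was lower at an unadjusted p under 0.05 or with DESeq2 either, whereas 3 were higher at an unadjusted p under 0.05 and 2 with DESeq2. The median log2 fold change (log2FC) of the 7 was 0.18, against 0.00023 over all genes tested. In 3 of the 7 (Plxna4, Plxnb2 and Plxnc1), all cKO-labelled libraries lay above all Ctrl libraries, as in 14.0% of all genes. In 0 of the 7 they all lay below, as in 13.4% of all genes. The summed level of the family was 368, 356 and 353 CPM in Ctrl 1 to 3 and 421, 399.9 and 437 CPM in the cKO-labelled libraries 1 to 3.

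Plxnb1 encodes plexin-B1, the high-affinity receptor of Sema4D. It had 6, 6 and 0 counts in Ctrl 1, 2 and 3, which is 0.459, 0.286 and 0 CPM. In the cKO-labelled libraries 1, 2 and 3 it had 29, 26 and 27 counts, or 1.94, 1.65 and 1.89 CPM. The gene was thus barely detected in Ctrl and low but even in the cKO-labelled libraries, and the groups did not overlap. A count of 0 in Ctrl 3 allows a level of up to 0.192 CPM (3 counts). The fitted log2FC was 2.87, a 7.33-fold higher level that rests on 12 counts in all Ctrl libraries and 82 in those labelled cKO. Plxnb1 passed the filter on low counts only through the cKO-labelled libraries. Within the first library series the difference of log2 CPM was 1.71 and within the second it was 3.14. The share of Plxnb1 in the summed plexin level per length was at most 0.100% in a Ctrl library and between 0.331% and 0.367% in the cKO-labelled libraries. In both groups its level per length was among the lowest 3 of the family.

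Plxna4 encodes plexin-A4, a receptor of class 3 semaphorins together with neuropilins and of transmembrane Sema6 proteins. It had 28, 30 and 23 counts (2.14, 1.43 and 1.47 CPM) in Ctrl 1, 2 and 3. In the cKO-labelled libraries 1, 2 and 3 there were 59, 79 and 67 counts (3.95, 5.02 and 4.70 CPM). The groups did not overlap, and the lowest library labelled cKO was well above the highest Ctrl library. Plxna4 rose 2.74-fold, with a log2FC of 1.45 (standard error 0.29, edgeR adjusted p = 0.0058). The difference was 1.01 in the first and 1.61 in the second library series. The antisense gene Plxna4os1, which shares no exon with Plxna4, had between 13 and 43 counts in Ctrl and between 35 and 48 in the cKO-labelled libraries.

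Plxnb2 encodes plexin-B2, the abundant B-type plexin of these cells and a receptor of Sema4C and angiogenin. It had 78.9, 93.6 and 77.0 CPM in Ctrl 1, 2 and 3 and 127, 102 and 112 CPM in the cKO-labelled libraries 1, 2 and 3. All cKO-labelled libraries were above all Ctrl libraries. Plxnb2 rose 1.37-fold, with a log2FC of 0.45 (standard error 0.092, adjusted p = 0.0065), and by 0.53 and 0.40 within the first and second series. In CPM, the mean difference of Plxnb2 (83.2 ± 9.06 against 114 ± 12.6, SD, n = 3 each) was far larger than that of Plxnb1 (0.248 ± 0.232 against 1.83 ± 0.156, SD, n = 3 each), although its fold change was smaller.

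**Figure D2:**
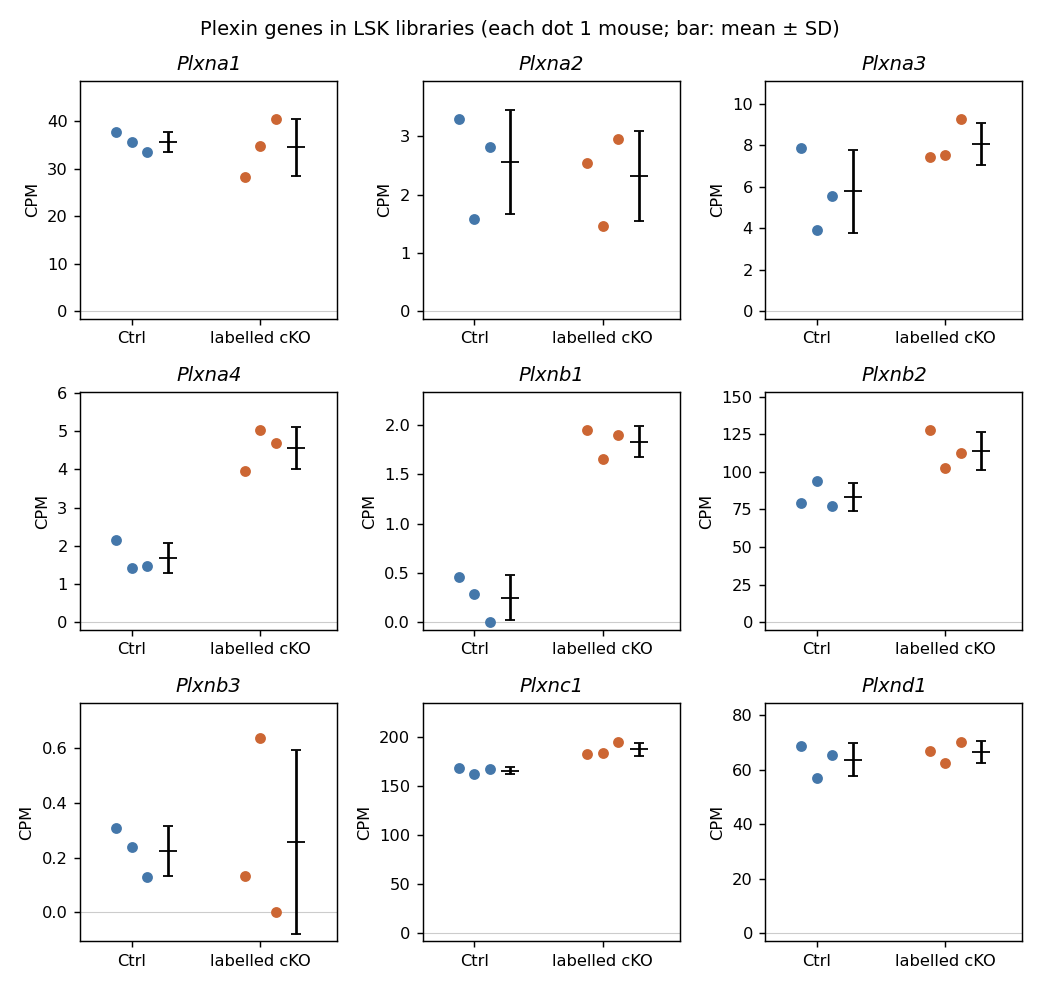
CPM of each plexin gene (linear axis that includes 0 in each panel), each dot 1 mouse, with the mean and SD of the 3 mice of a group beside the dots; dots run from replicate 1 to 3, which have no order. The groups are apart for Plxna4, Plxnb1, Plxnb2 and Plxnc1 and overlap for the other 5 genes.

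Plxnc1, the receptor of Sema7A, had 168, 162 and 167 CPM in Ctrl 1, 2 and 3 and 182, 184 and 195 CPM in the cKO-labelled libraries 1, 2 and 3. The groups did not overlap, but the log2FC of 0.18 (95% interval 0.04 to 0.31) did not pass the adjusted test (adjusted p = 0.099). Plxna3, another partner of neuropilins, had 7.88, 3.91 and 5.57 CPM in Ctrl and 7.44, 7.56 and 9.26 CPM in the cKO-labelled libraries. Ctrl 1 lay among the values labelled cKO, and the log2FC of 0.50 (95% interval -0.007 to 1.01, adjusted p = 0.23) did not pass. The difference was 0.97 in the second series and -0.07 in the first.

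The remaining plexins did not pass, and the intervals limit how far they could have moved. Plxnd1, the receptor of Sema3E and a regulator of vessel patterning, had between 57.1 and 68.9 CPM in Ctrl and between 62.5 and 70.3 CPM in the cKO-labelled libraries (log2FC 0.07, 95% interval -0.12 to 0.25, adjusted p = 0.71). Plxna1, which signals with neuropilins and with Sema6D, had between 33.5 and 37.8 CPM in Ctrl and between 28.3 and 40.4 CPM in the cKO-labelled libraries (log2FC -0.05, 95% interval -0.30 to 0.21, adjusted p = 0.86). Both groups overlapped in these genes, and a change as large as that of Plxnb2 lies outside both intervals. For Plxna2 the interval was wide (log2FC -0.13, 95% interval -0.91 to 0.66, adjusted p = 0.88), with between 23 and 44 counts per library. Plxna1, Plxna2 and Plxnd1 were each lower in the first series and higher in the second. Plxnb3, a receptor of Sema5A, had 4, 5 and 2 counts in Ctrl and 2, 10 and 0 counts in the cKO-labelled libraries, so that no difference could be detected at this depth.

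The position of the genes was also examined through the nearest tested protein-coding gene on both sides of each plexin. Of these 18 neighbours, 1 was higher and 1 lower in the cKO-labelled libraries at an adjusted p under 0.05, near the share of all genes tested (3.88% higher and 3.79% lower). Mapk11, a p38 MAP kinase gene that lies 5943 bases from Plxnb2, rose with a log2FC of 0.94 (standard error 0.21, adjusted p = 0.011). Podxl, which encodes podocalyxin and lies 580287 bases from Plxna4, fell with a log2FC of -0.66 (standard error 0.13, adjusted p = 0.0070). On the sides of Plxnb1, Ccdc51 at a distance of 2900 bases had a log2FC of -0.27 (adjusted p = 0.46). Nme6, at a distance of 712832 bases, had one of 0.13 (adjusted p = 0.64).

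Among the ligands, 8 of the 20 semaphorin genes passed the filter, 4 were higher in the cKO-labelled libraries at an adjusted p under 0.05 and 0 were lower, against 3.88% and 3.79% of all genes. The counts were the same at an unadjusted p under 0.05 and with DESeq2. Their median log2FC was 0.48. Sema3d, a secreted semaphorin, rose from 1.11 ± 0.284 to 4.64 ± 1.09 CPM (mean ± SD, n = 3 each), and its log2FC was 2.04 (adjusted p = 0.0013). Sema7a, the membrane-anchored ligand of plexin-C1, rose from 3.13 ± 0.778 to 8.30 ± 2.28 CPM (mean ± SD, n = 3 each), and its log2FC was 1.40 (adjusted p = 0.0041). The values of Sema7a were 3.67, 3.48 and 2.24 CPM in Ctrl and 5.76, 8.96 and 10.2 CPM in the cKO-labelled libraries, without overlap.

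Sema4c, a ligand of plexin-B2, rose with a log2FC of 0.85 (adjusted p = 0.033), and Sema4b with one of 0.43 (adjusted p = 0.018). Both lost the call in 4 of the 6 fits that left out 1 library. By contrast Sema4d, the ligand of plexin-B1 and the highest semaphorin per length in these cells, had 126, 149 and 133 CPM in Ctrl and 141, 132 and 139 CPM in the cKO-labelled libraries. Its groups overlapped, with a log2FC of 0.01 (95% interval -0.14 to 0.17, adjusted p = 0.94). Sema6b had a log2FC of 0.06 (adjusted p = 0.88). The ligand of plexin-D1, Sema3e, had between 0 and 1 counts in Ctrl and between 1 and 8 in the cKO-labelled libraries and was not tested. Sema3a and Sema5b had 0 counts in every library.

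Of 15 co-receptors and alternative receptors, 11 were tested, of which 1 was higher, 1 was lower and 9 did not pass, against 3.88% of all genes higher and 3.79% lower. Their median log2FC was -0.16. Nrp1, which encodes a neuropilin that pairs with A-type plexins, had 10.1, 14.8 and 11.3 CPM in Ctrl and 6.43, 6.23 and 5.19 CPM in the cKO-labelled libraries. The groups did not overlap, and Nrp1 fell with a log2FC of -1.02 (standard error 0.19, adjusted p = 0.0034). Nrp2, the other neuropilin, had a log2FC of -0.34 (adjusted p = 0.64). Kdr, a VEGF receptor that can act with plexins, had 1.15, 1.24 and 0.448 CPM in Ctrl and 2.88, 4.32 and 3.51 CPM in the cKO-labelled libraries. It rose with a log2FC of 1.90 (adjusted p = 0.0069), a call that was lost without the cKO-labelled library 2 (adjusted p = 0.054). Met, the receptor tyrosine kinase that associates with plexin-B1, had a log2FC of -0.002 (95% interval -0.34 to 0.34, adjusted p = 0.996). Erbb2, another kinase partner of B-type plexins, had 0 counts in every library. Tyrobp and Itgb1, with Cd72 the most abundant of this list per length, had log2FC values of -0.16 and 0.09 and did not pass.

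**Figure D3:**
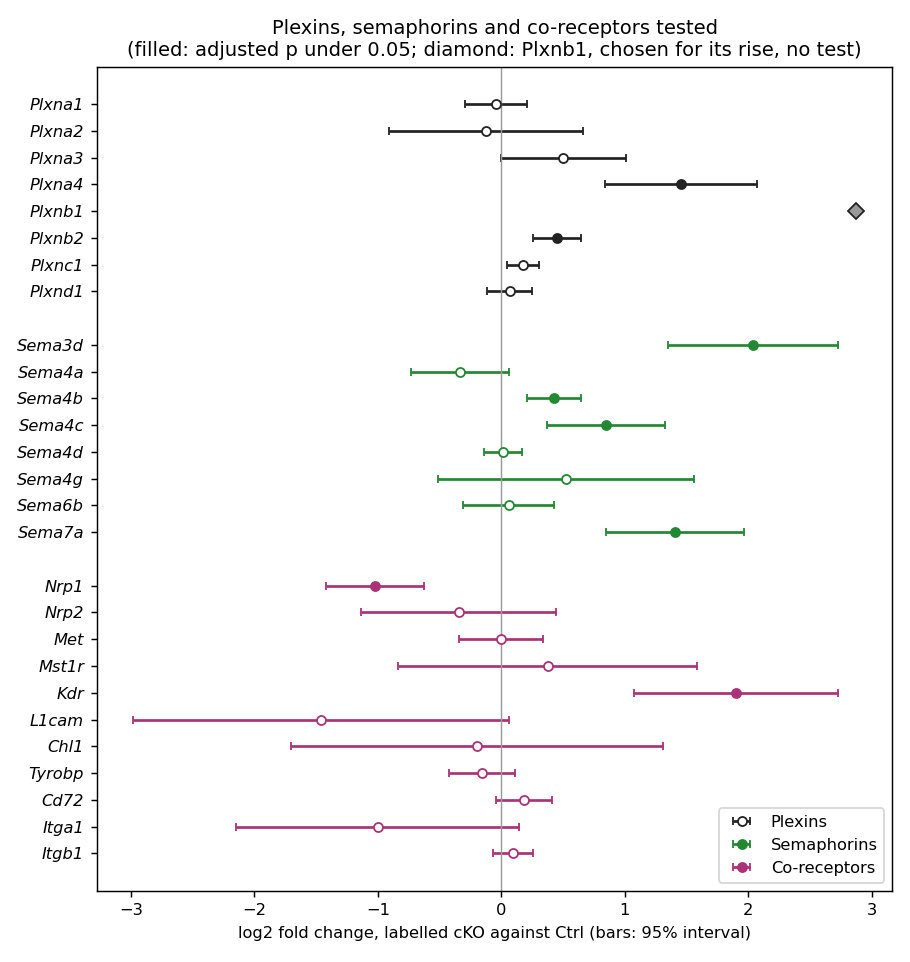
Log2FC values of the tested plexins, semaphorins and co-receptors, cKO-labelled libraries against Ctrl (n = 3 each), with 95% intervals except for Plxnb1; filled circles passed an adjusted p of 0.05 in edgeR's quasi-likelihood test and the grey diamond is Plxnb1, given without a test. Plxna4, Plxnb2, Sema3d, Sema4b, Sema4c, Sema7a and Kdr lie to the right of 0 and Nrp1 to the left.

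Of 37 intracellular effectors of plexins, 32 were tested, 5 were higher at an adjusted p under 0.05 and 0 were lower, against 3.88% and 3.79% of all genes. At an unadjusted p under 0.05, 8 were higher and 1 was lower, and with DESeq2 5 were higher and 0 lower. Their median log2FC was 0.10. Fyn, the Src-family kinase downstream of A-type plexins, rose from 60.8 ± 4.50 to 84.6 ± 10.9 CPM (mean ± SD, n = 3 each), and its log2FC was 0.48 (adjusted p = 0.0053). Arhgef11, which encodes an exchange factor that binds B-type plexins, rose by 0.34 on the log2 scale (adjusted p = 0.035), whereas Arhgef12, which encodes the related factor, had a log2FC of 0.03 (adjusted p = 0.93). Of the small GTPases on which the plexin domain acts, Rras2 rose by 0.64 (adjusted p = 0.044) and Rap1b by 0.23 (adjusted p = 0.043), and Rras, Mras and Rap1a did not pass. Farp1, an exchange factor related to the plexin-A effector Farp2, rose by 1.67 (adjusted p = 0.034). Fyn kept the call in all 6 fits that left out 1 library. Arhgef11, Rras2, Rap1b and Farp1 each kept it in 1 of the 6 and lost it with the library series as a covariate. Cfl1, Rap1b and Rock1 were the most abundant members per length, and Cfl1 and Rock1 had log2FC values of -0.15 and 0.03 without passing.

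The genes most like Plxnb1 across the 6 libraries, among 11539 protein-coding genes with at least 1 CPM on average, were Arhgef17, Jup, Slc25a11, Atxn7 and Tia1, with Pearson correlations of log2 CPM between 0.989 and 0.994. These values describe 6 libraries that share a genotype split and the low Plxnb1 counts of Ctrl 3. Within the family, the correlation with Plxnb1 was 0.92 for Plxna4, 0.85 for Plxnb2 and 0.82 for Plxnc1. It was 0.66 for Plxna3, 0.31 for Plxnd1, -0.04 for Plxna1 and -0.14 for Plxna2. The genotype split by which Plxnb1 was chosen enters these values too. The groups of Plxna4, Plxnb2 and Plxnc1 did not overlap.

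Marker genes of several cell types moved between the same groups. The long-term stem cells among these types belong to the LSK compartment itself. The paper also describes many lineage genes as expressed together, at a low level, in stem and progenitor cells. A lower sum of a list thus does not tell which cells held its RNA. For comparison, 3.88% of all genes tested were higher and 3.79% lower. Of 12 genes enriched in long-term stem cells, 8 were higher in the cKO-labelled libraries and 0 lower (also 0 with edgeR at an unadjusted p under 0.05 and with DESeq2), among them Procr, Fgd5 and Mecom, and their sum lay between 487 and 524 CPM in Ctrl and between 558 and 684 CPM in the cKO-labelled libraries. Hoxb5, another of the 8, had 1, 6 and 3 counts in Ctrl and 16, 17 and 18 in the cKO-labelled libraries. It passed the filter on low counts only through the latter, and kept the call in 1 of the 6 fits that left out 1 library. Of 10 endothelial markers 4 were tested and 1, Flt4, was higher (0 with DESeq2), with sums between 16.6 and 20.7 CPM in Ctrl and between 22.6 and 29.9 CPM in the cKO-labelled libraries. Among those not tested, the defining endothelial gene Cdh5 had 0, 2 and 5 counts in Ctrl and 11, 4 and 8 in the cKO-labelled libraries, Clec14a had 2, 1 and 2 against 5, 6 and 13, and Sox18 had 1, 10 and 0 against 5, 15 and 14. Stab2 had 5, 7 and 2 counts against 1, 1 and 0, Cldn5 had 0, 9 and 0 against 0 in all, and Sox17 had 0 in every library. Of 10 monocyte and macrophage markers 5 were lower, with sums between 116 and 158 CPM in Ctrl and between 48.7 and 66.3 CPM in the others. Of 10 neutrophil markers 6 were lower, with sums between 2791 and 3386 CPM in Ctrl and between 449.8 and 734 CPM in the others. Mpo held most of these sums, with 2668 ± 330 CPM in Ctrl and 360 ± 97.5 CPM in the cKO-labelled libraries (SD, n = 3 each). Ltf, Camp, Ngp and Ly6g had low counts and were not tested. Of the 6 that were lower, S100a8 had 34, 21 and 39 counts in Ctrl and 9, 11 and 3 in the cKO-labelled libraries. S100a9 had 16, 20 and 33 against 6, 6 and 2. Both passed the filter on low counts through Ctrl. For the stromal list 1 of 3 tested genes was higher and 2 were lower. Of the erythroid list 3 of 6 tested genes were lower, of the megakaryocyte list 2 of 8 were higher and 1 lower, of the B and plasma cell list 2 of 5 were lower, and of the T and NK cell list 1 of 4 was lower. The 2 lower B and plasma cell genes, Jchain and Vpreb1, also passed the filter on low counts through Ctrl. The part of these cell types in the plexin values was not tested.

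The log2FC of Plxna4 stayed between 1.34 and 1.65 and that of Plxnb2 between 0.36 and 0.55 over 14 alternatives, with adjusted p-values up to 0.043 and 0.048. That of Plxnb1 was between 2.32, without Ctrl 3, and 3.46, without Ctrl 1. Plxnc1 and Plxna3 kept their direction in all 14 and passed in none, with adjusted p-values from 0.082 and from 0.059. The sign of Plxna1, Plxna2 and Plxnd1 changed with single libraries left out.

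**Figure D4:**
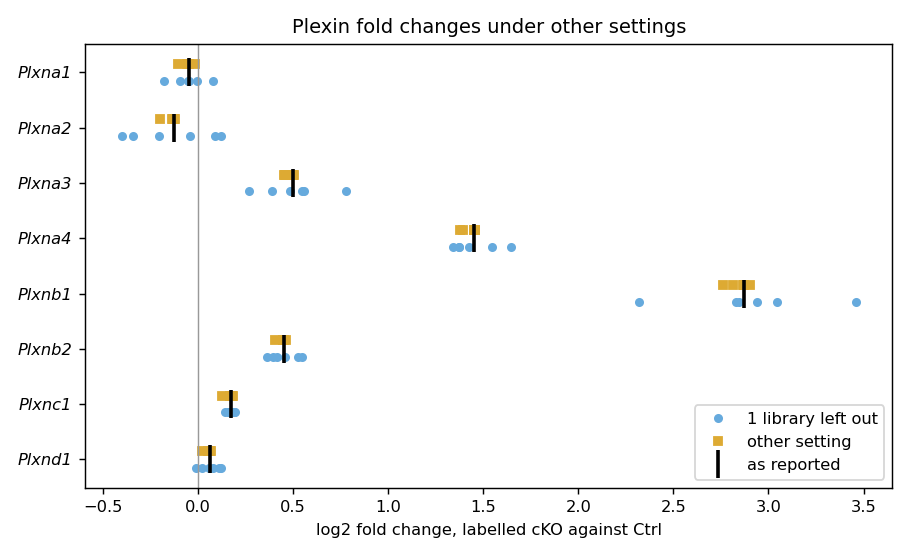
Log2FC values of the 8 tested plexins (cKO-labelled libraries against Ctrl) as reported (black bar), with 1 library left out (circles) and under other settings (squares). Plxna4 and Plxnb2 stay to the right of 0 in every fit, whereas Plxna1, Plxna2 and Plxnd1 cross it.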

How the data were processed

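The analysis used RNA-seq of LSK cells sorted from 6 mice, 3 per genotype, with 1 library per mouse. The authors aligned single reads of 75 bases to the mouse genome (GRCm38/mm10) with GSNAP (2015-12-31). Uniquely aligned reads were counted per Ensembl gene with featureCounts (1.5.0), on the strand of the gene. These counts, for 45706 genes, were deposited without normalization and without pooling of mice. Total counts were between 13003573 and 21277519 per library.

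GENCODE M21 gave a symbol to 98.8% of the Ensembl identifiers. The genotypes were compared in R 4.3.3 with edgeR 4.0.16 (TMM factors, filterByExpr with its defaults, quasi-likelihood test with genotype as the only term, Benjamini-Hochberg adjustment over the 15184 genes tested, threshold 0.05). Standard errors were derived from the log2 fold change and its F statistic, and intervals are at 95%. CPM used the TMM factors. For levels between genes, CPM were divided by the deposited exon length. Differences within a library series were taken after adding a prior count of 2 before log2 transformation. The named genes are all 9 plexins, Setd1b, up to 5 called members and the 3 most abundant members per length of each list, the nearest tested protein-coding gene on both sides of each plexin, and the 5 protein-coding genes of at least 1 CPM most like Plxnb1. The members and the lists were chosen with earlier results of these data known. Alternatives were DESeq2 1.42.0, its size factors, other filters, removal of trends against length or GC content (lowess, span 0.3), the library series as a covariate, removal of 394 mitochondrial, ribosomal or very abundant genes, a threshold of 0.01, and leaving out each library. The procedure was tested on simulated data. Promoter sequences are from RefSeq (GRCm38.p6), which held a window for 7 of the 9 plexins. Protein sequences are not used here.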

Additional observations from a re-analysis of the deposited data

How the results depend on the processing

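The counts past the threshold were recomputed under 15 alternatives. Plxna4 and Plxnb2 passed under each of them, and 0 plexins were lower under any. Plxnb1 was left out of the table with at least 10 counts in every library. With 1 library left out, the semaphorins past the threshold were between 2 and 4. The co-receptors and the effectors were each between 1 and 2. All genes were between 604, without the cKO-labelled library 2, and 1125, without Ctrl 1. With all libraries these counts were 4, 2, 5 and 1164. The cause of the loss was not tested. At a threshold of 0.01, 2 semaphorins, 1 effector and 513 genes passed. With at least 10 counts in every library, 1 co-receptor passed, since Kdr was then not tested. With the library series as a covariate, 1 effector passed, Fyn, and the cause was not tested. All genes past the threshold rose to 1682 under the alternative that gave the most. For the 7 tested plexins other than Plxnb1 no alternative changed a call. No paired analysis was possible because the labels number no replicates across the groups and, although the study's methods call the mice littermates, the sources do not say which of them shared a litter. With 3 mice per group, low genes such as Plxna2 and Plxnb3 could be measured only coarsely.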
